A study of Mus musculus with 9 samples.

Results

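The genes of Polycomb repressive complex 2 were examined for intervals of KDM6A, the demethylase that removes the histone mark this complex places. The 10 members were Ezh1, Ezh2, Eed, Suz12, Rbbp4, Jarid2, Aebp2, Mtf2, Phf1 and Phf19, out of 21883 protein-coding genes on the main chromosomes. A member was given every deposited interval that overlapped its RefSeq span plus 5 kb on each side, its window (GRCm38, mm10). The 5 interval lists held 137 such intervals, 107 of them from KDM6A libraries and 30 from IgG. The data come from chromatin immunoprecipitation with sequencing (ChIP-seq) in Sv129 mouse embryonic stem cells, grown on gelatin with serum and leukemia inhibitory factor. The control group is labelled wild type and had 2 KDM6A libraries. The other group received 0.12 µM MTX for 24 h, is labelled as folate deficiency, and had 2 KDM6A libraries and 1 IgG library, a nonspecific antibody that records background. All KDM6A libraries used 1 antibody lot, the source is 1 cell line, and nothing in the labels ties the libraries to different cultures, which means that the p-values below measure only the spread between these libraries, possibly technical. ChIP DNA gives no expression, so the cell type label could not be checked against marker genes.

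Polycomb repressive complex 2 methylates lysine 27 of histone H3 and keeps developmental genes silent in embryonic stem cells. EZH1 and EZH2 are its catalytic subunits, SUZ12 and EED hold the enzyme together and read its product, and RBBP4 binds histones. JARID2 and AEBP2 mark one form of the complex, and the Polycomb-like proteins MTF2, PHF1 and PHF19 another. KDM6A, also called UTX, takes the methyl groups off the same lysine.

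The lists were uneven and shallow. Control 1 had 44838 intervals, control 2 had 21228, MTX 1 had 24177, MTX 2 had 28976 and IgG had 22843, and the median interval held 79 to 130 immunoprecipitated reads. Reads inside intervals numbered 3251202 to 4192029 per library. IgG and MTX 1 were set against the same background reads, since the counts were equal in all 52 intervals with the same ends in both lists. A fold is the deposited ratio of immunoprecipitated to scaled background reads, and the intervals around folds below are exact 95% limits for counting error only. Libraries had been amplified over 30 cycles, so reads are not independent molecules.

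Between 5 and 8 of the 10 members carried an interval in each library, IgG included, and Suz12 was covered more densely than any other member. An interval lay in the window of 8 of 10 members in control 1, where 47.1% of all protein-coding genes had one. The count was 6 in control 2 (26.1% of all genes), 7 in MTX 1 (33.5%), 5 in MTX 2 (30.8%) and 7 in IgG (27.5%). With a deposited adjusted p under 0.05 the count in control 2 fell to 3 (22.3%). All members are autosomal, and these shares include genes on X and Y, where the 5 lists hold 40 and 18 intervals; over autosomal genes alone they were 49.8%, 27.6%, 35.4%, 32.6% and 29.2% in the same order of libraries, control 1 first. Suz12, Jarid2 and Ezh2 had one in all 4 KDM6A libraries, against 13.2% of all genes (14.0% of autosomal genes), and each of these 3 had an IgG interval too, as did 82.7% of all genes with an interval in the 4 libraries. Ezh2 left this group when a deposited adjusted p under 0.05 was required (2 members, beside 9.59% of all genes), since its control 2 interval had 0.242. Only 1 of the 3, Jarid2, still had an interval in all 4 libraries once intervals that IgG overlaps were left out (10.1% of all genes). Ezh1, Eed, Aebp2 and Mtf2 had intervals in 3 KDM6A libraries. Without control 2 the count thus rose from 3 to 5 with Eed and Mtf2, and without MTX 2 to 5 with Ezh1 and Aebp2. The share over all genes rose too, from 13.2% to 17.6% without control 2 and 15.7% without MTX 2. Rbbp4 had them in both control and neither MTX library, as did 2.18% of all genes, and no member showed the reverse (1.26% of all genes). Phf19 was listed in IgG alone and Phf1 in none of the 5 libraries. These counts are descriptions with no test, and with 2 libraries a group an exact permutation test cannot go below p = 0.33.

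Longer windows catch more intervals, so each member is set beside genes with a window of like length, always in the order control 1, control 2, MTX 1, MTX 2, IgG. Phf1, with a window of 14.8 kb and no interval, belongs to a class (under 20 kb) in which 26.0%, 11.4%, 16.8%, 13.6% and 14.1% of genes had one, and 2.17% had one in all 4 KDM6A libraries. Ezh1, Eed, Rbbp4 and Phf19 have windows of 30.6 to 45.3 kb, and 3, 2, 2, 1 and 2 of these 4 had an interval, beside 45.7%, 21.2%, 29.9%, 26.0% and 22.4% of their class (20 to 50 kb). None of the 4 had one in all KDM6A libraries (7.14% of the class). Suz12, Mtf2, Aebp2 and Ezh2 have windows of 51.0 to 75.0 kb, and 4, 3, 4, 3 and 4 of them had one, beside 69.2%, 41.8%, 51.0%, 50.2% and 42.0% of their class (50 to 100 kb). Suz12 and Ezh2 had one in all 4 KDM6A libraries (22.8% of the class). Jarid2, with a window of 201 kb, had intervals throughout, beside 85.4%, 63.6%, 70.7%, 71.5% and 63.9% of genes over 100 kb, and 50.9% in all 4. Suz12 and Ezh1 lie on chromosome 11, where 70.3%, 58.5%, 62.8%, 57.1% and 52.6% of genes had an interval and 36.2% had one in all 4 KDM6A libraries. With 1 to 4 members a class, these shares are background to the counts and set no class of members apart.

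Few intervals covered a start site, over all genes as at the members. The members' share of covered starts was the higher in each library, but it rests on 1 to 3 of 14 starts, all of Suz12, Mtf2 and Jarid2. Of the 107 KDM6A intervals at members, 90 lay wholly inside a gene, 7 covered its end, 6 lay in a flank and 4 covered its start. Start and end here are the edges of the gene span. Intervals inside a gene could still cover a further RefSeq start, as in control 1 at Jarid2 and in control 1 and MTX 1 at Mtf2. RefSeq promoters list 14 starts for the members, and 2 of them were under an interval in 3 or more of the 5 libraries, as were 1.08% of all starts. By library, 3 of the 14 were covered in control 1 (9.06% of all starts), 1 in control 2 (2.25%), 2 in MTX 1 (6.86%), 1 in MTX 2 (2.66%) and 3 in IgG (4.76%), and 0 in all 4 KDM6A libraries (0.132%). The 2 starts covered in 3 libraries were the Suz12 start (chromosome 11, 79993106), in control 2, MTX 1 and MTX 2, and an internal start of Mtf2 (chromosome 5, 108078165), in control 1, MTX 1 and IgG. The intervals over the Suz12 start had folds of 1.11 in control 2, 1.16 in MTX 1 and 1.03 in MTX 2. Their deposited adjusted p was 0.114, 0.00475 and 0.362, and each overlapped an IgG interval. On either side of this start, one IgG interval ended at 79992800 and the next began at 79993801. Over the internal Mtf2 start the folds were 0.898 in control 1, 1.24 in MTX 1 and 1.13 in IgG. The outer Mtf2 start (108065674) was covered in control 1 alone, the outer Jarid2 start (chromosome 13, 44730774) in IgG alone, and a second Jarid2 start (44731271) in control 1 and IgG. No start of the other 7 members was covered in any library. The 250 bases before the outer start of Suz12, Mtf2 and Jarid2 are shown because these are the members with a start under an interval; Suz12 follows from the rule for printing (a start covered in 3 or more libraries), and Mtf2 and Jarid2 were added after the values were seen. The internal Mtf2 start also meets that rule but is not printed, since exons and UTRs were not annotated here. They are the plus strand, RefSeq GRCm38.p6, chr11:79992856-79993105, chr5:108065424-108065673 and chr13:44730524-44730773, with CG dinucleotides in capitals.
Suz12: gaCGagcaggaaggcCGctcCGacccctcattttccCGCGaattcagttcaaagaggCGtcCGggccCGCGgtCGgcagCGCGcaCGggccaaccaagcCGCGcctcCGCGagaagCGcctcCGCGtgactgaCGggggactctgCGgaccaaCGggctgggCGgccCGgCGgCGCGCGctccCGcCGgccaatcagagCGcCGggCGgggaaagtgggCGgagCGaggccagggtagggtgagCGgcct
Mtf2: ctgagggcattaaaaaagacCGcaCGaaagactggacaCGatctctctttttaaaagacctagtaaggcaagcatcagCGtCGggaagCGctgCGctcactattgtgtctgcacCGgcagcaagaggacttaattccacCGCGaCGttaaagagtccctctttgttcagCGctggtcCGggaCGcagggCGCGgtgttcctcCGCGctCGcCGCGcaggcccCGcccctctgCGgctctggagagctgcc
Jarid2: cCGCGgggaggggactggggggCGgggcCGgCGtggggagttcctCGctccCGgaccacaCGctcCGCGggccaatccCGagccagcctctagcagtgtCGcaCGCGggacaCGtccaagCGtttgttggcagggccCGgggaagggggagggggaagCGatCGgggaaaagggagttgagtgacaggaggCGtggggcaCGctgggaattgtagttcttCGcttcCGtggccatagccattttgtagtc
CG reads the same on both strands. The Suz12 stretch held 37 of them, a number that 2.76% of 21262 RefSeq promoter stretches of that length reach, and the Mtf2 and Jarid2 stretches held 23 each, which 17.4% reach. The median over all was 10. Among the members whose starts were under no interval, the Phf19 stretch held 31, the Rbbp4 stretch 30, the Ezh2 and Phf1 stretches 23 each, the Ezh1 stretch 14, the Eed stretch 12 and the 3 Aebp2 stretches 1, 14 and 3.

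Suz12, the scaffold of the complex (chromosome 11, 79993106 to 80034123, plus strand), was largely under intervals in every library. They covered 69.0% of its window in control 1, 65.7% in control 2, 70.0% in MTX 1, 67.8% in MTX 2 and 69.2% in IgG. At most 0.356% of all genes were covered as densely in any library. The 500 kb on each side of the window were covered by 17.8 to 27.1%, and chromosome 11 as a whole by 13.8 to 20.5%. The cover of Suz12 thus stood above that of its surroundings in each of the 5 libraries, IgG included. This was not particular to Suz12, since Ezh2 and Jarid2 also stood above their surroundings in each of the 5. In IgG these had 10.7% against 0.78% at Ezh2 and 18.4% against 4.9% at Jarid2.

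**Figure D1:**
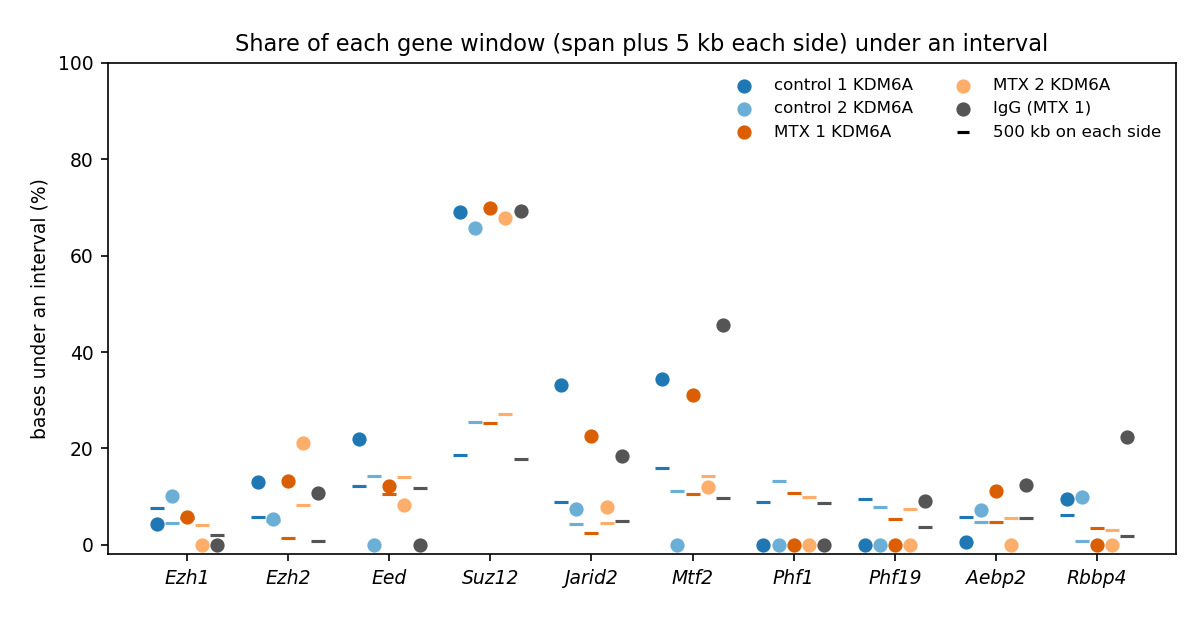
Share of bases under an interval in the window of each member (points, by library) and in the 500 kb on each side (dashes of the same colour). The 5 points of Suz12 lie between 65.7% and 70.0%, and IgG lies as high as the KDM6A libraries.

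The read ratio at Suz12 was low and alike in all libraries. Summed over its intervals, control 1 had 1310 reads against 1437 background reads, a fold of 1.21 (1.12 to 1.30). Control 2 had a fold of 1.18 (1.09 to 1.28), MTX 1 of 1.17 (1.09 to 1.26), MTX 2 of 1.19 (1.10 to 1.28) and IgG of 1.18 (1.09 to 1.28). The limits of all 5 overlap. Of the 27 KDM6A intervals at Suz12, 27 overlapped an interval of another KDM6A library and 26 an IgG interval. Bases under an interval of all 4 KDM6A libraries formed 5 stretches, with midpoints 29.3 to 41.8 kb from its start, and an IgG interval reached each of them. The stretch at 80030801 to 80032400 held the highest single fold of the gene, 2.17 in MTX 2, beside 0.996 in control 1, 1.48 in control 2, 1.11 in MTX 1 and 1.23 in IgG.

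**Figure D2:**
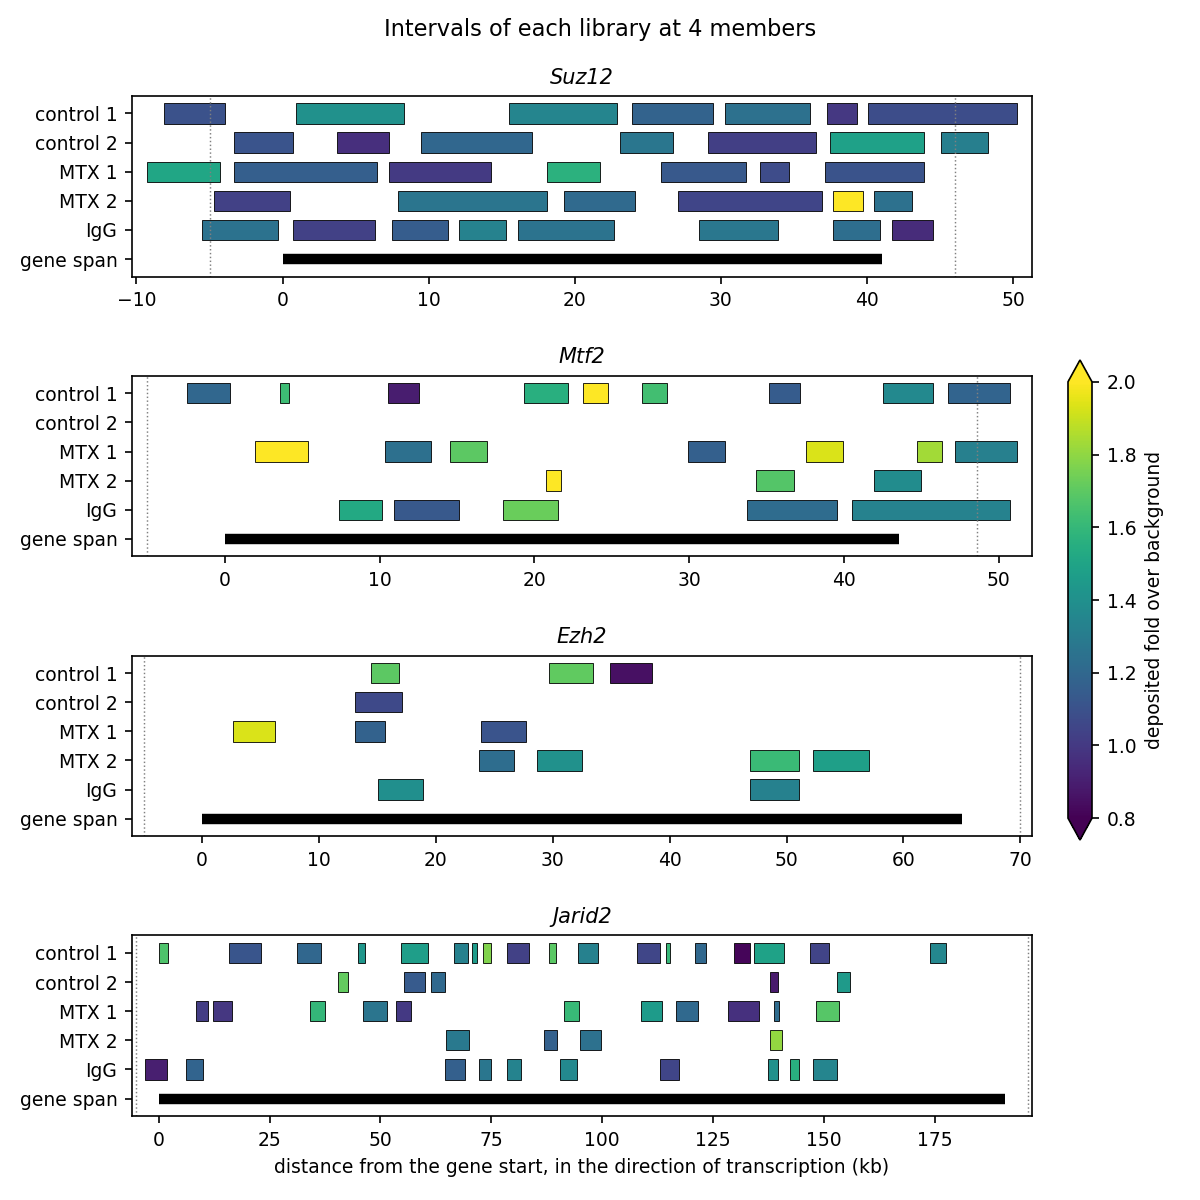
Intervals of the 5 libraries (rows) along Suz12, Mtf2, Ezh2 and Jarid2, against distance from the gene start in kb. Colour gives the deposited fold, the black bar the gene span and dotted lines the window, and Suz12 is largely filled in all 5 rows while Mtf2 has no control 2 interval.

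The catalytic subunit genes differed from each other. Ezh2, the main methyltransferase gene of dividing cells (chromosome 6, 47530274 to 47595270, minus strand), had 3 intervals in control 1, 1 in control 2, 3 in MTX 1, 4 in MTX 2 and 2 in IgG. All lay inside the gene, and its start was free in every library. Control 1 (47578401 to 47580800, fold 1.70), control 2 (47578201 to 47582200, 1.06) and MTX 1 (47579601 to 47582200, 1.17) met at one place inside the gene, where IgG had a fold of 1.39 (47576401 to 47580200). MTX 2 had no interval there. MTX 2 and IgG had an interval with the same ends further in, at 47544201 to 47548400, with 141 reads against 98 in MTX 2 (fold 1.61, 1.24 to 2.11) and 125 against 98 in IgG (1.32, 1.01 to 1.74). The highest Ezh2 fold, 1.93 (1.45 to 2.59), was that of MTX 1 at 47589001 to 47592600, the interval closest to the start, and neither another library nor IgG had an interval over it.

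Ezh1, the catalytic subunit more typical of resting cells (chromosome 11, 101191115 to 101226463, minus strand), had 1 interval each in control 1, control 2 and MTX 1. Their folds were 1.80 (1.23 to 2.65), 0.885 (0.683 to 1.15) and 1.32 (0.950 to 1.83), and no 2 of them overlapped. Its window was covered by 0 to 10.1% per library, against 65.7 to 70.0% at Suz12 on the same chromosome. The control 2 interval held fewer reads than scaled background, at a deposited adjusted p of 1.

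The other core genes had isolated intervals. Eed, which binds the methyl mark and stimulates the enzyme (chromosome 7, 89954654 to 89980976, minus strand), had 4 KDM6A intervals at 4 separate places and none in control 2 or IgG. MTX 2 had the highest fold, 1.70 (1.29 to 2.26) at 89968201 to 89971200. MTX 1 had 1.31 (1.03 to 1.67) at 89975801 to 89980200, which ends 0.776 kb short of the start site. Control 1 had 1.42 (1.07 to 1.88) over the gene end and 0.936 (0.709 to 1.23) inside. Rbbp4, the histone-binding subunit (chromosome 4, 129307100 to 129335370, minus strand), had 1.61 (1.21 to 2.14) in control 1 at 129322001 to 129325600 and 1.34 (1.03 to 1.76) in control 2 at 129307401 to 129311200. The control intervals of Rbbp4 did not overlap each other, and the control 1 interval lay within an IgG interval of fold 1.25 (0.972 to 1.62), so the listing in both control libraries is not 1 common site.

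Jarid2, a DNA-binding cofactor that helps recruit the complex (chromosome 13, 44730774 to 44921643, plus strand), had the most intervals and is by far the longest member. It had 18 intervals in control 1, 5 in control 2, 11 in MTX 1, 4 in MTX 2 and 10 in IgG. They covered 33.2%, 7.47%, 22.6% and 7.77% of its window in the KDM6A libraries and 18.4% in IgG. The libraries of each group thus differed more from each other than the groups did. Summed folds were 1.25 (1.18 to 1.33) and 1.21 (1.07 to 1.37) in control, 1.22 (1.14 to 1.31) and 1.35 (1.19 to 1.53) in MTX and 1.22 (1.13 to 1.32) in IgG, with limits that overlap throughout. All 4 KDM6A libraries met at 1 place, 44869401 to 44870400, which is 139 kb from the start and inside the gene. Folds there were 1.49 in control 1, 0.882 in control 2, 1.22 in MTX 1 and 1.81 in MTX 2, and the IgG interval over the same bases had 1.40. Of the 38 KDM6A intervals at Jarid2, 17 overlapped IgG.

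Aebp2, a zinc finger cofactor that shares a form of the complex with JARID2 (chromosome 6, 140622454 to 140678472, plus strand), held the highest fold of any member. It was 13.2 in control 1, from 30 reads against 3 background reads in an interval of 400 bp, and its limits ran from 4.11 to 67.7. Control 2 had 1.04 (0.817 to 1.33) and MTX 1 1.45 (1.18 to 1.78) at other places in the gene, and MTX 2 had none. IgG had intervals of fold 1.31 and 1.46, which overlapped none of the 3.

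Mtf2, the Polycomb-like protein that brings the complex to CpG-rich DNA (chromosome 5, 108065660 to 108109219, plus strand), had 9 intervals in control 1, none in control 2, 7 in MTX 1, 3 in MTX 2 and 5 in IgG. IgG covered the most of its window, 45.6%, beside 34.4% in control 1, 31.0% in MTX 1 and 11.9% in MTX 2. Summed folds were 1.31 (1.17 to 1.45) in control 1, 1.51 (1.36 to 1.69) in MTX 1, 1.77 (1.45 to 2.17) in MTX 2 and 1.34 (1.21 to 1.47) in IgG. With no interval in control 2 the gene could not enter the test of MTX against control. The highest single fold was 4.56 (2.51 to 8.87) in MTX 2, from 57 reads against 14 at 108086401 to 108087400, where control 1 had 1.56, IgG 1.73 and MTX 1 no interval. MTX 1 had 2.08 (1.53 to 2.84) at 108067601 to 108071000, which IgG did not overlap and control 1 did with 1.62 (0.983 to 2.70). Of the 19 KDM6A intervals at Mtf2, 13 overlapped IgG.

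The other Polycomb-like genes were nearly empty. Phf19 (chromosome 2, 34893752 to 34914353) had 1 IgG interval of fold 1.05 (0.783 to 1.41) and none of KDM6A. Phf1 (chromosome 17, 26933127 to 26937908), the shortest member, had none at all, as did 36.1% of protein-coding genes. An absent interval means only that none was called, since the lists give no counts outside intervals.

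**Figure D3:**
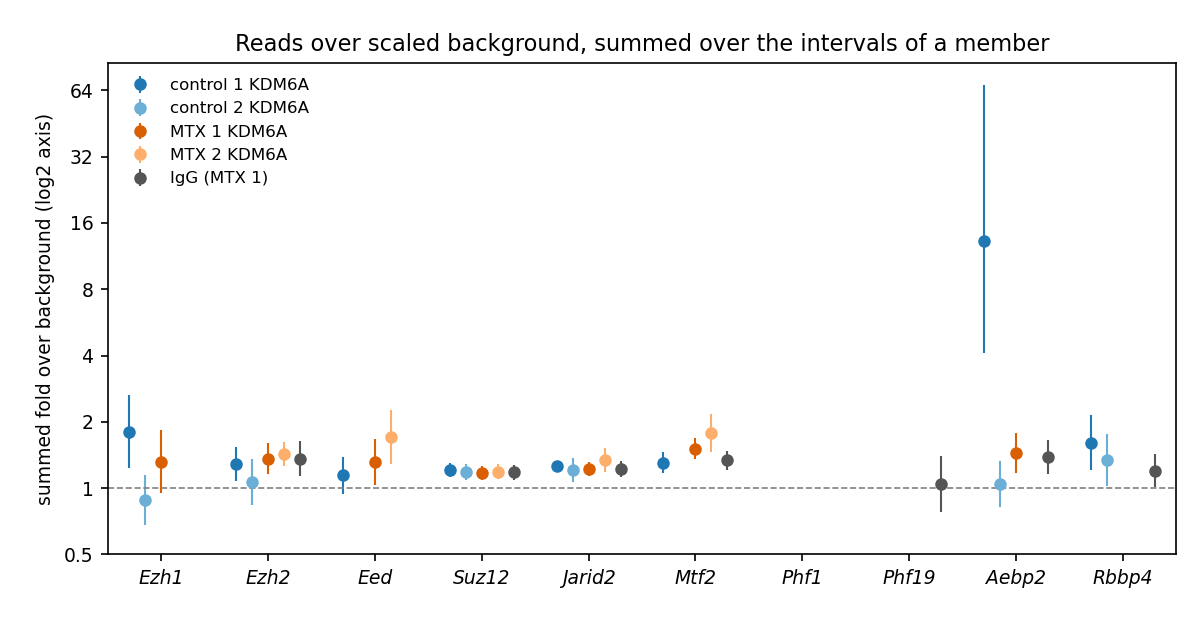
Reads over scaled background summed over the intervals of each member and library (log2 axis), with exact 95% limits for counting error; a missing point means no interval. Apart from Aebp2 in control 1 (13.2), all points lie between 0.885 and 1.80.

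Between MTX and control, the ratio of reads to background could be set side by side only at the 3 members with intervals in all 4 KDM6A libraries, and no difference passed the test. Each library's reads were summed over its own called intervals, so the ratio does not follow 1 fixed region: at Ezh2 the 1 control 2 interval overlapped none of the 4 MTX 2 intervals, and 5.33% and 21.1% of the window were covered. The values below compare called intervals, not occupancy at the same bases. Over Ezh2 the summed log2 folds were 0.37 and 0.09 in control and 0.44 and 0.51 in MTX, so both MTX libraries lay above both control libraries, as at 10.7% of the 2887 genes fitted. The fitted difference was 0.24 ± 0.21 (SE, log2, MTX minus control; edgeR quasi-likelihood test, adjusted p = 0.992). Jarid2 had 0.33 and 0.28 in control and 0.29 and 0.43 in MTX, which overlap, with a difference of 0.05 ± 0.12 (edgeR, adjusted p = 0.992). Suz12 had 0.27 and 0.24 in control and 0.23 and 0.25 in MTX, a difference of -0.02 ± 0.12 (edgeR, adjusted p = 0.996). The group means were 0.23 ± 0.19 and 0.48 ± 0.05 at Ezh2, 0.30 ± 0.03 and 0.36 ± 0.10 at Jarid2 and 0.26 ± 0.02 and 0.24 ± 0.01 at Suz12 (SD, n = 2). Of all genes fitted, edgeR called 0 higher in MTX (0.0%) and 0 lower (0.0%) after adjustment at 0.05, with 116 under an unadjusted p of 0.05, beside 60 by DESeq2 and 124 by limma, which also called 0. Leaving out a library gave 1 call without control 1, 11 without control 2, 1 without MTX 1 and 5 without MTX 2. The differences at Suz12 and Jarid2 turned sign when reads were scaled by TMM without the background, to 0.10 and -0.20, and Ezh2 went from 0.24 to 1.12 under that scaling. Jarid2 also turned sign without intervals that IgG overlaps (-0.11) and without MTX 2 (-0.0144). None of these passed the test, and a p that misses the threshold does not show that the groups were alike.

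IgG was the closest comparison for MTX 1, since both were set against the same background reads. At the members, 19 MTX 1 and 17 IgG intervals overlapped in 22 pairs. The MTX 1 fold was the higher in 12 of them, and the counting limits of MTX 1 and IgG overlapped in all 22. Pairs hold only places called in both lists, so 19 of the 31 MTX 1 intervals at members entered. The MTX 1 intervals left out had folds from 0.965 (Jarid2) to 2.08 (Mtf2), and IgG has no value there to compare. At Mtf2 the MTX 1 fold was the higher in 4 of 5 pairs, with medians of 1.70 against 1.22, at Jarid2 in 4 of 6 (1.34 against 1.26), at Suz12 in 4 of 10 (1.12 against 1.25) and at Ezh2 in 0 of 1 (1.17 against 1.39). There is 1 IgG library, so this has no replicate check.

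**Figure D4:**
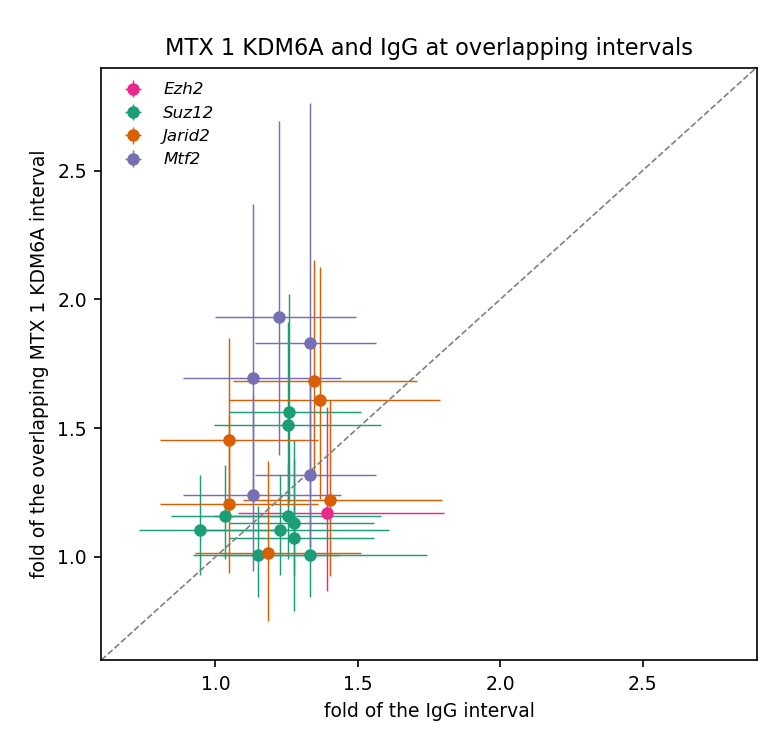
Fold of each MTX 1 KDM6A interval (y axis) against that of the IgG interval it overlaps (x axis) at Ezh2, Suz12, Jarid2 and Mtf2, with exact 95% limits for counting error; the dashed line marks equal folds. Of the 22 pairs, 12 lie above the line, and the limits overlap in each. Intervals that overlap none of the other list are not shown.

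The members' intervals had a lower median fold than all intervals of the same list in each library. Their median fold was 1.35 in control 1, 1.17 in control 2, 1.26 in MTX 1, 1.33 in MTX 2 and 1.26 in IgG, beside 1.62, 1.39, 1.43, 1.50 and 1.49 over all intervals. Among the 107 KDM6A intervals, 5 had a fold of at least 2 (4.67%, against 19.4% of all KDM6A intervals) and 11 a fold under 1 (10.3% against 5.44%). A deposited adjusted p under 0.05 was given to 72 (67.3% against 82.2%). Control 1 gave 42 of the 107. MTX 2 shared only the first of these traits, with 11.1% at a fold of at least 2 (18.2% of its list). Of its 18 intervals, 0 had a fold under 1 (5.33%) and 83.3% had an adjusted p under 0.05 (83.7%). IgG overlapped 61 of the 107 KDM6A intervals (57.0% against 22.2%), and an interval of another KDM6A library 76 (71.0% against 46.5%). On chromosome 11 these shares were 40.4% and 77.4% of all KDM6A intervals, beside 26 and 27 of 27 at Suz12 and 0 and 0 of 3 at Ezh1. Off chromosome 11, IgG overlapped 18006 of 98395 KDM6A intervals and another KDM6A library 39349, beside 35 (45.5%) and 49 (63.6%) of the 77 at members. Suz12, Jarid2 and Mtf2 hold 84 of the 107, so these shares describe few genes.

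The partner lists, chosen with earlier results of these data known, are given as counts in the order control 1, control 2, MTX 1, MTX 2, IgG, where 47.1%, 26.1%, 33.5%, 30.8% and 27.5% of all genes had an interval. Of 5 further partners of the complex (Rbbp7, Epop, Lcor, Lcorl and Ezhip), 3, 2, 2, 2 and 3 had one. Lcor and Lcorl had them in all 5 libraries, and their windows of 123 and 171 kb belong to the class in which 50.9% of genes had one in all 4 KDM6A libraries. Of 20 genes of Polycomb repressive complex 1, which binds the same mark and ubiquitinates histone H2A, 9, 4, 8, 9 and 10 had one. Phc3 and Pcgf3 had them in all 5, as did 10.9% of all genes. Their windows of 80.2 and 55.7 kb belong to the class in which 22.8% of genes had one in all 4 KDM6A libraries. Among the 3 demethylase genes, Kdm6b had 1 interval in control 1, 3 in MTX 1 and 1 in IgG, and Kdm6a and Uty had none. Kdm6a, Rbbp7, Ezhip and Bcor lie on X and Uty on Y, and none of these 5 had an interval. Of 966 genes on X, 1.14% had one in any of the 5 libraries, as did 0.391% of 256 genes on Y and 67.6% of autosomal genes, so these absences go with the chromosome. No start of the listed genes was under an interval in all 4 KDM6A libraries.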

How the data were processed

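The deposited lists give, per interval, counts of immunoprecipitated and background reads, a p-value, a fold ratio and an adjusted p-value, as the authors' caller wrote them. The submitters' processing notes name Bowtie2 and the mm10 build, and no source used here names the caller. Each list came from 1 library, and only called intervals are listed, on a 200 bp grid. Within a list the deposited fold equals the read ratio times 1 constant (1.04 to 1.32), so background reads divided by that constant served as the reads foreseen from background. Interval starts were converted to 1-based positions. Intervals were assigned to RefSeq GRCm38.p6 gene spans with 5 kb flanks. The 4 input samples were not analysed here as files of their own.

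For MTX against control, reads summed per window were fitted with edgeR 4.0.16 (quasi-likelihood, that quantity as offset, Benjamini-Hochberg adjustment) over the 2887 genes with an interval in all 4 KDM6A libraries. A zero background count, found in 6 intervals, was set to 0.25. On simulated counts the fit found 199 of 200 genes changed by 1 on the log2 scale. False calls numbered 14 among the unchanged genes of the 2887. The simulation fixed the spread between libraries in advance and left out interval calling. Its change was larger than any that this fit, with the background offset, gave at a member (0.24 at Ezh2), so it does not give the power to find such differences. Limits on folds are exact binomial (Clopper-Pearson, 95%). Alternatives used limma 3.58.1, DESeq2 1.42.0, TMM, other flanks, interval filters and left-out libraries. All 10 members are named; genes of other lists are named where a start is covered in all 4 KDM6A libraries, and those named otherwise were chosen after their values were seen. Members and lists were chosen with earlier results of these data known. Shares over autosomal genes were added after the data were seen.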

Additional observations from a re-analysis of the deposited data

How the results depend on the processing

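Among the alternative values, 77 stayed the same in direction and call or within 1.5 times of a count, 10 moved and 4 reversed. Control 2 had 3 members in place of 6 when a deposited adjusted p under 0.05 was asked for (22.3% of all genes). Without intervals that IgG overlaps, MTX 2 had 3 in place of 5 (27.7%), 1 member stayed in all 4 KDM6A libraries, and Jarid2 differed by -0.11. Leaving out 1 library gave 3 to 5 members present in all the others, 1 to 11 genes called, and a difference of -0.0144 (without MTX 2) to 0.13 at Jarid2, -0.03 to -0.003 at Suz12 and 0.11 to 0.39 at Ezh2. An arm left with 1 library is assumed to vary like the other. TMM without the background offset gave 0.10 at Suz12, -0.20 at Jarid2 and 1.12 at Ezh2. With the replicate block, edgeR called 3 genes and gave 0.25 at Ezh2, -0.02 at Suz12 and 0.05 at Jarid2. Over the 2887 genes fitted, the deviations of control 1 and MTX 1 from their group means correlated by 0.0253. Control 2 and MTX 2 only mirror this value, so the numbers are not shown to pair the libraries. Ezh2 and Suz12 could not be fitted without IgG-overlapped intervals. The cause of these shifts was not tested. Interval depth (a median of 79 to 130 reads) limits single folds.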
